A study of Mus musculus with 8 samples.

Results

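The genes described here are the zinc finger genes with a name of Zfp and a number (Zfp36 left out) whose probe gave a signal in L929 cells. A gene was taken where the mean of its brightest probe over the 8 arrays was above 23.7 intensity units, which is the size of the most negative value deposited and served as the bound of background. By this rule 144 of the 258 Zfp genes on the array were expressed, through 178 of their 352 probes, among 7693 genes above the bound of the 16593 named on the array. The genes were thus chosen by their mean intensity over treated and untreated arrays together. A single member, Zfp296, had an untreated mean at or under the bound and so entered through its interferon arrays. In 6 members, Zfp553, Zfp329, Zfp74, Zfp599, Zfp687 and Zfp641, the interferon mean was at or under the bound. These 6 thus entered through their untreated arrays, which favours a fall among them.

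L929 is a mouse fibroblast line, grown in DMEM with foetal calf serum. The parental cells and L929 cells with ectopic IRF8 (L929IRF8 below) were each left untreated or given interferon beta (IFNβ) at 1000 U/ml for 4 h, and total RNA was hybridised to Illumina mouse bead arrays. Each of the 4 groups had 2 independent replicates. How the ectopic IRF8 was introduced, whether L929IRF8 is a clone, and whether the parental cells carried an empty vector are not given in the sources used here.

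Zfp is the mouse naming stem for proteins with zinc fingers, mostly of the C2H2 kind, in which a pair of cysteines and a pair of histidines hold a zinc ion and the folded finger contacts DNA. They form the largest class of mammalian transcription factors. Many carry a KRAB domain that recruits Trim28 (KAP1), which in turn brings the histone methyltransferase Setdb1 and heterochromatin proteins, and are known for the silencing of transposable elements. Others lack that domain or work outside transcription, in ribosome assembly or translation control. Which members carry a KRAB domain was not analysed here. IFNβ signals through its receptor and JAK kinases to the complex ISGF3, which binds the interferon-stimulated response element in promoters.

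The interferon response itself was present in both lines. Isg15, a ubiquitin-like interferon-stimulated gene, was higher after IFNβ by 7.56 on the log2 scale in L929 and by 7.10 in L929IRF8, with adjusted p-values of 0.000716 and 0.000895. The probe for Irf8 was under the bound on every array. Its place on the transcript is not given in the sources used here, so it does not check the line labels. Of the fibroblast markers on the array 8 of 11 were above the bound, with vimentin among the brightest, against 0 of 3 epithelial, 1 of 3 endothelial, 2 of 5 macrophage and 0 of 2 lymphocyte markers. The defining leukocyte marker Ptprc was under the bound, as were Adgre1 and Itgam, while the macrophage markers Cd14 (mean 112.8) and Lyz2 (29.5) were above it. The fibroblast markers under the bound were Thy1, Lum and Dcn.

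The Zfp genes were dim transcripts on this array. Their means over the 8 arrays ran from 23.9 to 2689.5 intensity units, with a median of 130.4 against 371.8 for all genes above the bound. When those genes were cut by level into a dim, a middle and a bright class of equal size, at 167.6 and 787.2 units, 81 members fell in the dim class, 51 in the middle and 12 in the bright class. Of the members 128 exceeded the bound on all 8 arrays. The members just inside it were Zfp599 (25.4), Zfp687 (24.9) and Zfp641 (23.9), and the Zfp genes just outside were Zfp871 (23.1), Zfp974 (22.4) and Zfp560 (20.3). The brightest member was Zfp131, a BTB-domain factor, followed by Zfp985 (2518.1), Zfp212 (1437.2), Zfp639 (1407.5), Zfp46 (1363.1), Zfp282 (1083.5), Zfp277 (1000.0) and Zfp943 (965.0). A level is set here against other levels only to describe the signal, since probes differ in how well they hybridise.

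In L929, IFNβ was followed by a rise of 1 Zfp gene, Zfp296, and a fall of 2, Zfp82 and Zfp597, while 141 of the 144 did not pass the test. The background in that comparison was 0.996% of all probes called higher and 0.28% called lower, or 2.12% and 0.481% of genes above the bound. Without an adjustment for many tests 3 members were higher and 22 lower at a p under 0.05, which makes 15.3% lower against 9.83% of all genes above the bound, 6.43% of which were higher. The changes themselves were small. The median change of the members was -0.16 on the log2 scale (quartiles -0.30 and 0.01), against -0.08 for all genes above the bound and -0.00 for all probes, and 106 members (73.6%, against 63.8% of genes above the bound) had a negative change. Without replicate 1 of the L929 IFNβ arrays the median was -0.07 and 1 member was called. The count was also 1 when either untreated L929IRF8 array was left out.

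In L929IRF8 the same 3 genes passed, Zfp296 higher and Zfp82 and Zfp597 lower. The background was 0.864% of all probes higher and 0.21% lower, or 1.69% and 0.403% of genes above the bound. At an unadjusted p under 0.05, 7 members were higher and 12 lower, and the 8.33% lower was not above the 10.1% of all genes above the bound, 5.98% of which were higher. The median change was -0.11, against -0.08 for genes above the bound, and 99 members (68.8%, against 65.0%) had a negative change. No member was called when L929IRF8 IFNβ replicate 1, L929IRF8 untreated replicate 1 or either L929 IFNβ array was left out, and 1 was called without L929IRF8 IFNβ replicate 2 or either untreated L929 array.

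**Figure D1:**
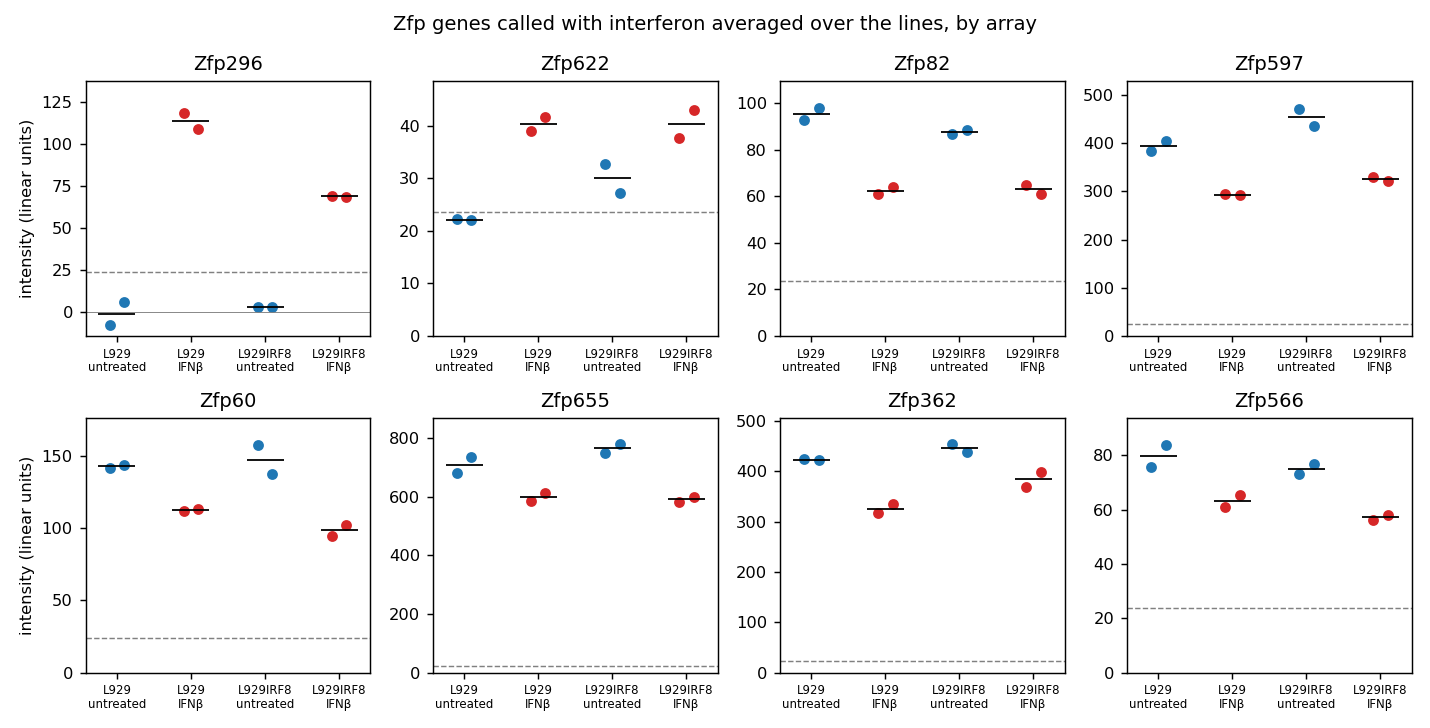
Intensity in linear units of the 8 Zfp genes called with IFNβ averaged over the lines, on each of the 8 arrays. Points are arrays, blue untreated and red IFNβ; horizontal bars are means of the 2 arrays of a group, and the dashed line is the bound of background at 23.7. Untreated and IFNβ arrays do not overlap in any of the 8 genes, and the untreated arrays of Zfp296 lie under the bound.

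Averaging the effects of both lines, 4 arrays against 4, gave 2 genes that rose, Zfp296 and Zfp622, and 6 that fell, Zfp82, Zfp597, Zfp60, Zfp655, Zfp362 and Zfp566. This average uses the same arrays as the within-line comparisons and is no separate evidence. The background was 1.49% of all probes called higher and 0.72% called lower, or 3.04% and 1.57% of genes above the bound. At an unadjusted p under 0.05, 7 members were higher (against 7.34% of genes above the bound) and 31 lower (21.5%, against 15.2%). Counting all 258 Zfp genes, signal or not, also gave 2 higher and 6 lower.

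Zfp296, known for its expression in embryonic stem cells and from reprogramming to pluripotency, had the largest change of any member. Its intensity was -7.6 and 6.3 on the untreated L929 arrays and 118.4 and 108.8 after IFNβ, and it was 3.0 and 3.4 on the untreated L929IRF8 arrays and 69.2 and 68.5 after IFNβ. All 4 untreated arrays were under the bound and all 4 IFNβ arrays were above it, with the L929 arrays higher than the L929IRF8 arrays. Zfp296 was thus at least 4.79-fold higher after IFNβ in L929 (fitted log2 change 2.78 ± 0.16 SE, adjusted p = 0.00615) and at least 2.91-fold higher in L929IRF8 (2.14 ± 0.16, adjusted p = 0.0142). A second Zfp296 probe gave a fitted change of 1.90 over both lines (adjusted p = 0.00477). The difference between the lines after IFNβ, -0.61 on the log2 scale, did not pass (adjusted p = 0.726), nor did the interaction of -0.63 ± 0.23 (adjusted p = 1.0).

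Because Zfp296 rose with IFNβ, the stretch before its start site is shown, from the RefSeq promoter table on GRCm38.p6 (chr7:19577037-19577286, plus strand, 250 bases ending at the base before the annotated start). The response element core (GAAA, any 2 bases, GAAA) was searched on both strands and was not found in the listed window of Zfp296, so no letter is in capitals.
Zfp296: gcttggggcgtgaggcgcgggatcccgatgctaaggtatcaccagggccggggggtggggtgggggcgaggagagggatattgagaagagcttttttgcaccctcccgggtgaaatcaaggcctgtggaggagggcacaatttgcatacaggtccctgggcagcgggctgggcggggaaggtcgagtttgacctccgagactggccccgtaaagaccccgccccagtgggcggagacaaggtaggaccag
In the listed windows, each of 250 bases before to 50 after the start, the core was found in 5 of the 120 members with a promoter entry (4.17%). The same letters were in 3.99% of all 27025 genes in that table and in 3.99% of genes above the bound, and in 23.9% of the genes called higher with IFNβ. The 5 members were Zfp334, Zfp420, Zfp941, Zfp169 and Zfp213, with average changes of -0.27, -0.30, 0.01, -0.25 and 0.19, none of which passed the test.

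Zfp622, the mammalian counterpart of yeast Rei1 and a factor of large ribosomal subunit maturation, was the other gene that rose, from a low level. It was at 22.2 and 22.0 on the untreated L929 arrays and 39.0 and 41.8 after IFNβ, and at 32.8 and 27.3 on the untreated L929IRF8 arrays and 37.7 and 43.1 after IFNβ. The IFNβ arrays were all above the untreated arrays, and the untreated L929 arrays were under the bound. The average change was 0.43 ± 0.06 (adjusted p = 0.0398), and with the replicate number as a block the adjusted p was 0.0728. It was 0.172 with an intensity trend and 0.0827 with values raised to the bound. With a pseudocount of 4 it was 0.0398, and with only probes above the bound 0.0498. The call of Zfp622 was thus close to the threshold.

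Zfp82, a gene of the KRAB class, fell in both lines. Its intensity was 92.9 and 97.7 on the untreated L929 arrays and 60.9 and 64 after IFNβ, and it was 86.7 and 88.5 on the untreated L929IRF8 arrays and 65.0 and 61.0 after IFNβ. The IFNβ arrays of both lines lay together below all untreated arrays. It was 1.53-fold lower after IFNβ in L929 (-0.50 ± 0.04, adjusted p = 0.0167) and 1.39-fold lower in L929IRF8 (-0.39 ± 0.04, adjusted p = 0.0393). With the replicate number as a block the adjusted p in L929IRF8 was 0.0757. Its second probe above the bound had a change of -0.62, which did not pass (adjusted p = 0.392).

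Zfp597, whose human counterpart is an imprinted gene, fell by a like amount. Its intensity was 384.3 and 404.3 on the untreated L929 arrays and 294.1 and 292.3 after IFNβ, and it was 471.9 and 435.4 on the untreated L929IRF8 arrays and 330.5 and 321.5 after IFNβ. Each line's IFNβ arrays lay below its untreated arrays, and the IFNβ arrays of L929IRF8 were also below the untreated L929 arrays. The change was -0.41 ± 0.05 in L929 (adjusted p = 0.0461) and -0.46 ± 0.05 in L929IRF8 (adjusted p = 0.0393), a 1.34-fold and a 1.39-fold decrease. With the replicate number as a block the adjusted p was 0.0849 and 0.0757, and 0.0274 for the average over the lines.

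The other 4 falls passed the test for the average over the lines and in neither line by itself. Zfp60, a KRAB zinc finger gene, was at 141.7 and 143.8 untreated and 111.9 and 113.5 after IFNβ in L929, and at 157.2 and 137.3 untreated and 94.5 and 102.4 after IFNβ in L929IRF8 (average -0.41 ± 0.05, adjusted p = 0.0335). Zfp566 was at 75.6 and 83.9 untreated and 61.1 and 65.3 after IFNβ in L929, and at 73.2 and 76.8 untreated and 56.1 and 58.1 after IFNβ in L929IRF8 (average -0.29 ± 0.04, adjusted p = 0.0455). In both genes the 4 IFNβ arrays lay below the 4 untreated arrays, as they did in Zfp655 and Zfp362. Zfp655, which encodes a factor that binds the signalling protein Vav1, was at 680.9 and 737.2 untreated and 584.6 and 612.4 after IFNβ in L929, and at 750.0 and 781.3 untreated and 583.8 and 599.2 after IFNβ in L929IRF8 (average -0.30 ± 0.04, adjusted p = 0.0341). Zfp362 was at 423.7 and 422.0 untreated and 316.2 and 334.1 after IFNβ in L929, and at 453.2 and 438.1 untreated and 369.4 and 399.1 after IFNβ in L929IRF8 (average -0.29 ± 0.04, adjusted p = 0.0347). These falls, of 1.23-fold to 1.38-fold, were close to the threshold: over 18 alternative settings Zfp655 was called in 8, Zfp60 in 7, Zfp362 in 6 and Zfp566 in 3, as against 18 of 18 for Zfp296, Zfp82 and Zfp597. With the replicate number as a block the adjusted p was 0.0643 for Zfp60 and 0.0539 for Zfp362.

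The promoters of Zfp60 and Zfp566 hold the letters ACTACA, any 2 bases, TCCC, which are part of the binding site of the factor Zfp143 (Staf), which activates many housekeeping promoters. These letters were searched on both strands after the sequences had been seen. They were in 19 of the 120 members with an entry (15.8%), in 2.08% of all genes in the promoter table, and in 4.97% of the genes above the bound other than Zfp. The windows of both genes are shown on GRCm38.p6 with that of Zfp420, which holds the response element core as well, each of 250 bases ending at the base before the annotated start. Zfp60 lies at chr7:27731159-27731408 (plus strand), Zfp566 at chr7:30090511-30090760 (minus strand) and Zfp420 at chr7:29859762-29860011 (plus strand). Capitals mark these 12 letters and, in Zfp420, after them the 10 letters of the core read from the other strand. The matches do not overlap each other.
Zfp60: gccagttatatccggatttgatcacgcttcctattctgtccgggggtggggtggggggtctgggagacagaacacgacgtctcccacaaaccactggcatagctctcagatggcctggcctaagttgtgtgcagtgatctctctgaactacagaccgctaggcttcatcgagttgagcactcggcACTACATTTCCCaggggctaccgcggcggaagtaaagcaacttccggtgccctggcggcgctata
Zfp566: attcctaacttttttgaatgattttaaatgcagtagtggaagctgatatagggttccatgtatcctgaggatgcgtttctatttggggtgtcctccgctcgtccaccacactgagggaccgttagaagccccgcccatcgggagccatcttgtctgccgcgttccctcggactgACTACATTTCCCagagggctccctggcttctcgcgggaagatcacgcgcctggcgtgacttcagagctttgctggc
Zfp420: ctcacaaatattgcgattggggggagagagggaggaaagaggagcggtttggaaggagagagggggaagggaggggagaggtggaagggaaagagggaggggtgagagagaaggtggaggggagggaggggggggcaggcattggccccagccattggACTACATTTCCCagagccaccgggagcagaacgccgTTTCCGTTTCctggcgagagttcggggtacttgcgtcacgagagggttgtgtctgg
The letters began 65 bases before the start in Zfp60, 76 in Zfp566 and 92 in Zfp420. The 19 members with these letters had a median average change of -0.17, with 15 negative and 2 called lower. These 2 were Zfp60 and Zfp566. The letters were searched after the sequences had been seen, so that count is no support for a link. The 101 members without the letters had a median of -0.10, with 72 negative, 3 called lower and 2 called higher. Members with the letters were also dimmer, with a median intensity of 86.0 against 137.4. The probe of Zfp420, at a mean of 111.2, had a change of -0.30 that did not pass (adjusted p = 0.606). Whether the letters bear on the change was not tested.

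Beyond the called genes, the 4 IFNβ arrays lay wholly below the 4 untreated arrays in 22 members (15.3%, against 10.5% of all genes above the bound and 5.25% of all probes). They lay wholly above in 5 members (3.47%, against 5.91% and 3.53%). Taken line by line, IFNβ arrays were below the untreated arrays in 59 members in L929 (41.0%, against 29% of genes above the bound) and in 41 in L929IRF8 (28.5%, against 26.7%), and in both lines in 29 (20.1%, against 14.4%). The corresponding counts above were 15 in L929 (10.4%, against 13.9%), 15 in L929IRF8 (10.4%, against 12.4%) and 6 in both (4.17%, against 6.97%).

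**Figure D2:**
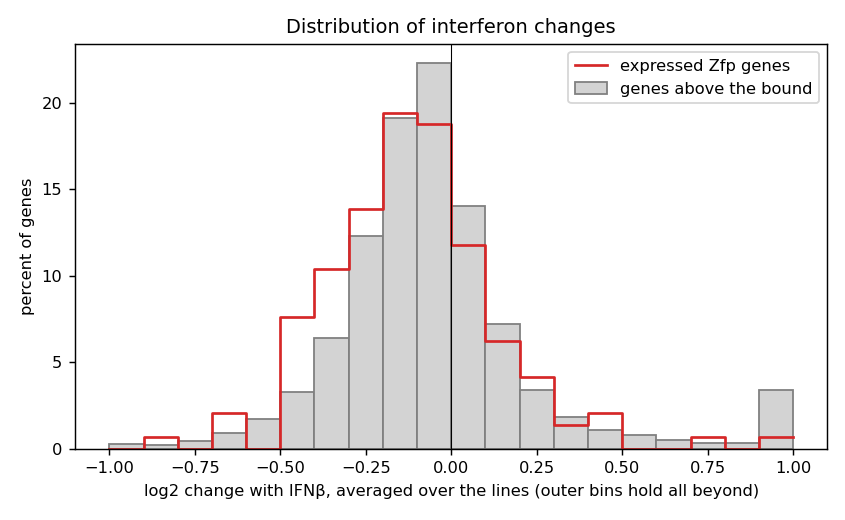
Percent of genes in bins of the log2 change with IFNβ averaged over the lines, for the 144 expressed Zfp genes (red line) and the 7693 genes above the bound (grey bars); the outer bins hold all values beyond. The Zfp genes hold a larger share between -0.5 and -0.2 than the genes above the bound and a smaller share beyond 0.5.

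Several of the larger decreases without overlap did not pass the test and are given as values. Zfp52, of the KRAB class, was at 151.1 and 116.5 untreated and 99.9 and 76.3 after IFNβ in L929, and at 144.4 and 137.6 untreated and 95.0 and 55.8 after IFNβ in L929IRF8 (average -0.67 ± 0.18, adjusted p = 0.217). Zfp638, the DNA-binding protein NP220 known for silencing unintegrated retroviral DNA, was at 595.2 and 434.9 untreated and 325.2 and 333.8 after IFNβ in L929, and at 539.1 and 491.2 untreated and 396.0 and 380.7 after IFNβ in L929IRF8 (average -0.50 ± 0.11, adjusted p = 0.136). Zfp598, a ubiquitin ligase that marks collided ribosomes, was at 46.3 and 70.2 untreated and 34.4 and 41.5 after IFNβ in L929, and at 63.1 and 63.2 untreated and 40.5 and 42.2 after IFNβ in L929IRF8 (average -0.45 ± 0.12, adjusted p = 0.197). In each of these 3 genes the 4 IFNβ arrays lay below the 4 untreated arrays. Zfp771 had a change of -0.62, Zfp148 (the GC-box factor ZBP-89) of -0.45, Zfp641 of -0.43 and Zfp524 of -0.40, with adjusted p-values from 0.253 to 0.491. A second Zfp771 probe above the bound, at a mean of 28.6, had a change of -0.23 (adjusted p = 0.774). The interferon mean of Zfp641 was at or under the bound.

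Of the increases without overlap, 3 did not pass. Zfp382, of the KRAB class, was at 42.4 and 57.6 untreated and 65.4 and 99.2 after IFNβ in L929, and at 31.8 and 54.4 untreated and 87.4 and 96.7 after IFNβ in L929IRF8 (average 0.73 ± 0.19, adjusted p = 0.204). Zfp710 was at 280.5 and 340.4 untreated and 377.7 and 474.9 after IFNβ in L929, and at 281.0 and 281.9 untreated and 404.6 and 402.1 after IFNβ in L929IRF8 (average 0.47 ± 0.10, adjusted p = 0.125). In Zfp382 and Zfp710 the IFNβ arrays lay above all untreated arrays. Zfp39 had an average change of 0.26 ± 0.09 (adjusted p = 0.313). When the replicate block was combined with a fit of only the probes above the bound, a setting chosen after the data had been seen, 19 members were called. Of these 15 were lower (10.4%, against 6.75% of genes above the bound), with Zfp52, Zfp771, Zfp638 and Zfp598 among them, and 4 higher (2.78%, against 6.12%), which were Zfp296, Zfp382, Zfp710 and Zfp622.

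The average change over the 144 members had a median of -0.11, with quartiles of -0.27 and 0.02, against -0.08 for the 7549 other genes above the bound and -0.02 for all probes. A negative average change was found in 105 members (72.9%) and in 66.9% of the other genes above the bound. The negative median was present in each class of level: it was -0.13 in the dim class of levels, -0.11 in the middle and -0.08 in the bright class, where all genes above the bound had -0.08, -0.08 and -0.07. The bright class held 10 negative changes among 12 members. Large changes were rarer among the members than elsewhere, with 6 of 144 beyond 0.5 in size (4.17%, against 9.02% of genes above the bound).

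The shift was uneven over the arrays. Set against the untreated mean of its line, the median member was at -0.21 on L929 IFNβ replicate 1 and at -0.07 on replicate 2, where the median gene above the bound was at -0.09 and -0.06. In L929IRF8 the median member was at -0.11 and -0.08, and the median gene above the bound at -0.10 and -0.06. All 4 IFNβ arrays were thus below their line's untreated mean. Taken as IFNβ minus untreated within a replicate number, the median member was at -0.18 for number 1 and -0.11 for number 2 in L929, and at -0.07 and -0.13 in L929IRF8. The median gene above the bound was at -0.08 and -0.06 in L929 and at -0.09 and -0.06 in L929IRF8, so that the Zfp genes were lower than it in 3 of the 4 pairs and not in L929IRF8 number 1. When each array was centred on the median change of the probes above the bound, a scaling added after the data had been seen, the median change of the members was -0.09 in L929, -0.04 in L929IRF8 and -0.04 on average. The members called on average were then 2 higher and 2 lower, against 2 and 6, and in L929 2 higher and 0 lower, against 1 and 2.

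**Figure D3:**
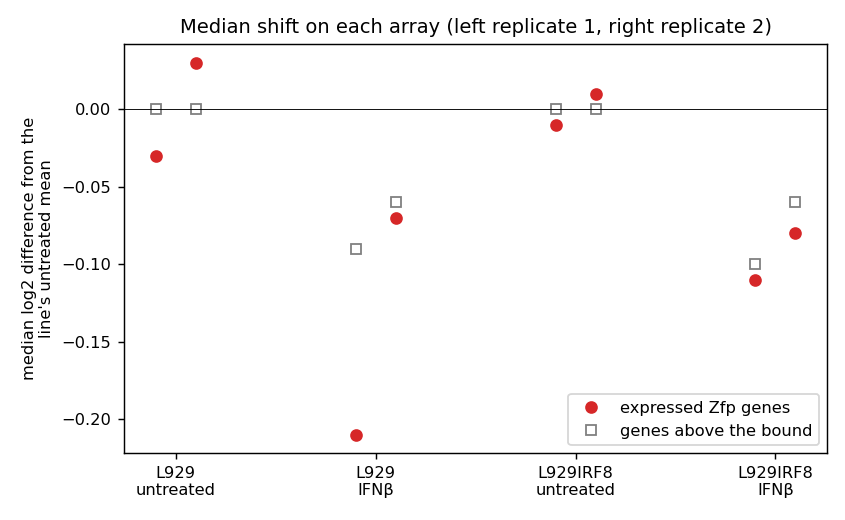
Median log2 difference of each array from the untreated mean of its line, for the 144 expressed Zfp genes (red points) and the genes above the bound (open squares); replicate 1 is left and replicate 2 right in each group. L929 IFNβ replicate 1 is lowest for the Zfp genes at -0.21, and the other 3 IFNβ arrays lie from -0.11 to -0.07.

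Most members changed in the same direction in both lines, as did most genes above the bound. Of the 144 members 81 had a negative change in both lines (56.2%, against 49.6% of genes above the bound), 20 a positive change in both, and 43 opposite signs. Of the 7693 genes above the bound 3816 had a negative change in both lines, 1601 a positive change in both and 2276 opposite signs. Across genes, the changes in L929 and L929IRF8 had a Pearson correlation of 0.691 over the 144 members, 0.508 without Zfp296, and a Spearman correlation of 0.535. For all genes above the bound the Pearson correlation was 0.907 and the Spearman correlation 0.518. Genes are not independent replicates, and these values describe the arrays only.

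**Figure D4:**
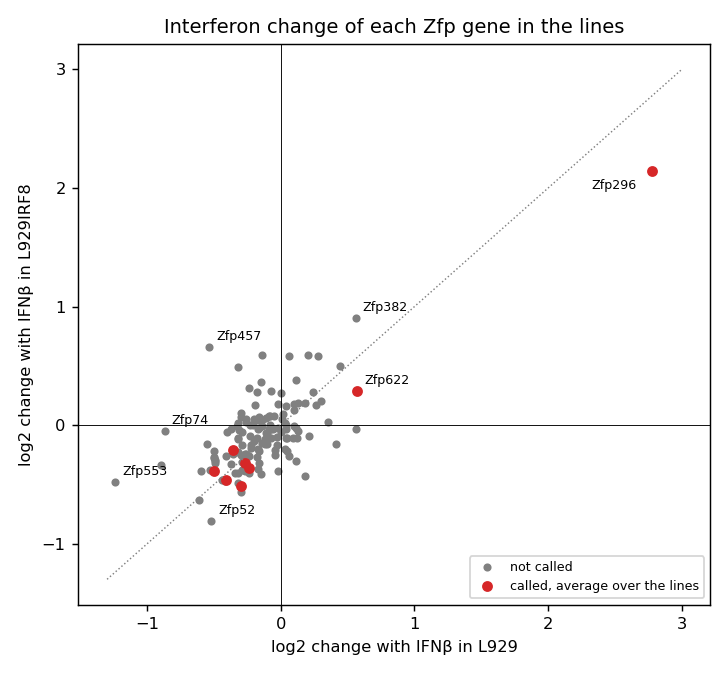
Log2 change with IFNβ in L929 (horizontal) and in L929IRF8 (vertical) for each of the 144 expressed Zfp genes; red points are the 8 genes called on average, grey points the others, and the dotted line marks equal change. Zfp296 lies far from all others, at 2.78 and 2.14.

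No Zfp gene passed the test for a difference between the lines. No member was called between the lines without IFNβ, where 0.00389% of all probes were called higher and 0.0117% lower, and at an unadjusted p under 0.05 there were 4 higher and 3 lower of the 144, against 3.13% and 3.25% of genes above the bound. After IFNβ no member was called either, against 0% of probes higher and 0.00389% lower, with 6 members higher and 1 lower at an unadjusted p under 0.05, against 2.07% and 3.05% of genes above the bound. The interaction of line and IFNβ called no member, against 0% and 0.00389% of probes, with 0 higher and 2 lower at an unadjusted p under 0.05, against 1.55% and 2.38% of genes above the bound. Those 2 were Zfp296 and Zfp628. The 21 alternative settings, all of them with limma, also gave 0 calls in these 3 comparisons. With the arrays of both treatments together, 1 member lay wholly higher in L929IRF8 (0.694%, against 1.27% of genes above the bound) and 0 wholly lower (against 1.01%).

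Zfp628, which falls outside the rule for named genes and was chosen after its values were seen, had the lowest unadjusted p of the interaction. It was at 43.3 and 48.2 untreated and 54.1 and 54.1 after IFNβ in L929, and at 75.6 and 65.3 untreated and 45.2 and 51.0 after IFNβ in L929IRF8. The arrays moved up in L929 and down in L929IRF8 without overlap, and the untreated L929IRF8 arrays were the highest. Its interaction was -0.61 ± 0.12 (unadjusted p = 0.00393, adjusted p = 0.507), and its difference between the untreated lines was 0.48 ± 0.08 (adjusted p = 0.387).

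The largest interaction was that of Zfp457. Zfp457, a KRAB gene also named Rslcan-6, was at 269.2 and 334.0 untreated and 172.6 and 235.7 after IFNβ in L929, and at 93.4 and 207.9 untreated and 254.8 and 211.4 after IFNβ in L929IRF8. The arrays moved down in L929 and up in L929IRF8 without overlap, and the untreated L929IRF8 replicates differed from each other by more than either line's mean moved. Its interaction was 1.20 ± 0.55 (adjusted p = 1.0). Zfp74, Zfp930, Zfp553 and Zfp808 had interactions of 0.82, 0.81, 0.76 and 0.73, with an adjusted p of 1.0 each. The interferon means of Zfp74 and Zfp553 were at or under the bound. Zfp467, known for favouring fat cell over bone cell fate in marrow stroma, had line differences (L929IRF8 minus L929) of 0.23 untreated and 0.53 after IFNβ, with adjusted p-values of 0.967 and 0.866. Zfp329 and Zfp110 had line differences of -0.31 and 0.30 on average over the treatments, at means of 29.7 and 32.4, near the bound.

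None of the 8 brightest members passed the test. Zfp131 was at 2806.8 and 2888.7 untreated and 2409.9 and 2667.7 after IFNβ in L929, and at 2310.0 and 3001.6 untreated and 2673.4 and 2758.3 after IFNβ in L929IRF8, with groups that overlap (average -0.06 ± 0.10, adjusted p = 0.874). Zfp282, which represses a retroviral long terminal repeat in human cells, had an average change of -0.14 ± 0.10 (adjusted p = 0.737), and Zfp639 of -0.13 ± 0.11 (adjusted p = 0.774). The average changes of Zfp985, Zfp212, Zfp46, Zfp277 and Zfp943 were -0.10, -0.09, -0.09, -0.04 and 0.10, and none passed. For Zfp212 its 4 probes above the bound gave changes from -0.40 to 0.13, none past the threshold. In all, 28 members had more than 1 probe above the bound, and the probes differed in sign in 4 of them. Zfp809, which directs silencing of murine leukaemia virus and was looked up for that role after its values were seen, was at 174.1 and 169.6 untreated and 176.9 and 166.0 after IFNβ in L929, and at 97.9 and 207.0 untreated and 182.7 and 170.7 after IFNβ in L929IRF8 (average 0.13 ± 0.23, adjusted p = 0.89).

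Zfp genes are known to lie in clusters. Chromosome 7 held 37 of the 144 members (25.7%, against 7.55% of genes above the bound), chromosome 17 held 15 (10.4%, against 5.0%) and chromosome 13 held 11 (7.64%, against 3.58%), in the RefSeq gene table. The chromosome 7 members had a median average change of -0.14, with 29 negative, against -0.11 for all 144. The members on chromosomes 17 and 13 were at -0.10 each, with 9 and 8 negative. Chromosome medians ran from -0.27 on chromosome 2 (7 members) to 0.03 on chromosome 8 (8 members). The differences between chromosomes were not tested. There were 17 runs of members that are next to each other among all genes of that table, with 38 members in all. Of the 21 pairs of next neighbours in these runs both genes had a negative change in 16 (76.2%). Among genes above the bound this held for 50.1% of the 3518 such pairs. Single genes were negative in 72.9% of all 144 members and 67.0% of genes above the bound. Members in runs were negative more often than all 144, the exceptions being Zfp672, Zfp457, Zfp516, Zfp110 and Zfp809. All members were negative in 12 of the 17 runs. The pairs share members. Neither the difference in pair shares nor whether neighbours moved together was tested. Zfp82 and Zfp566, both of which fell, are such neighbours on chromosome 7. Zfp553 and Zfp771, with changes of -0.86 and -0.62 that did not pass (adjusted p = 0.247 and 0.253), are another pair there. The interferon mean of Zfp553 was at or under the bound. On chromosome 6 the run of Zfp398, Zfp282, Zfp212 and Zfp956 had changes of -0.38, -0.14, -0.09 and -0.40, none of which passed. How far neighbours resemble each other in the sequence under the probes was not analysed here.

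The partners of KRAB zinc finger proteins in silencing were read from a list. Of 32 such genes listed, 26 were on the array and 21 above the bound. On average over the lines 1 rose and 0 fell, against 3.04% and 1.57% of genes above the bound. At an unadjusted p under 0.05, 2 were higher (against 7.34%) and 3 lower (14.3%, against 15.2%). The gene that rose was Morc3, a nuclear ATPase of silent chromatin, from 1324.3 to 2030.7 in L929 and from 1371.9 to 2294.1 in L929IRF8 (means of 2 arrays), an average change of 0.67 ± 0.09 (adjusted p = 0.0498). Trim28 had an average change of -0.20 ± 0.12 (adjusted p = 0.672) and Setdb1 of 0.06 ± 0.17 (adjusted p = 0.975). The DNA methyltransferase gene Dnmt3b had a change of -0.44 ± 0.06, just short of the threshold (adjusted p = 0.0579). The median over the 21 was -0.13, against -0.08 for genes above the bound.

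Other zinc finger families above the bound were compared with the Zfp genes by their counts. Of all genes above the bound 3.04% were called higher and 1.57% lower on average over the lines. At an unadjusted p under 0.05 the shares were 7.34% and 15.2%, and the median average change was -0.08. The 17 Zbtb genes had a median average change of -0.18, with 1 higher (Zbtb5, 1.07 ± 0.08, adjusted p = 0.00753) and 0 lower, and at an unadjusted p under 0.05 1 higher and 1 lower. The 7 Klf genes had a median of -0.27 and the 9 Zkscan and Zscan genes of -0.10, both with 0 called, and with 0 and 1 higher and 3 and 2 lower at an unadjusted p under 0.05. The 11 Zc3h genes, many of which bind RNA, had a median of -0.09 with Zc3h7a higher (0.51 ± 0.05, adjusted p = 0.0221). The 12 Phf genes, which carry PHD fingers, had a median of -0.09 with Phf11d and Phf11a higher and Phf13 lower. The Zc3h genes had 1 higher and 1 lower at an unadjusted p under 0.05, and the Phf genes 3 higher and 3 lower. Phf11d was 6.01 ± 0.23 higher on the log2 scale (adjusted p = 0.00103), a change that no Zfp gene approached. The 12 Zdhhc genes, whose products are palmitoyl transferases of the membrane and not DNA-binding proteins, had a median of -0.13 with 0 called and 0 at an unadjusted p under 0.05 in either direction. The medians of the Zbtb, Klf and Zdhhc genes were thus below the -0.11 of the Zfp genes and those of the other 3 groups above it, and the differences between the families were not tested.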

How the data were processed

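The authors deposited 1 table of linear intensities for 25697 probes on 8 bead arrays. No source used here names the tool. Judged by their distribution, these deposited intensities had been background-subtracted (28.1% to 28.3% below 0 on each array) and quantile normalized (sorted values within 1.7 units), which hides a change shared by most genes. Probes were named from the platform annotation, and 144 of 144 members were found in the RefSeq gene table.

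Negative values were replaced by 0 and log2(value + 16) was used, which understates changes of dim genes. A model with 1 coefficient for each of 4 groups was fitted to all probes with limma 3.58.1 (lmFit, eBayes) in R 4.3.3, without a block or filter. Residual degrees of freedom numbered 4, and the eBayes prior 0.684. Adjusted p-values are Benjamini-Hochberg over all 25697 probes, with a threshold of 0.05, and measure the spread between these arrays. The 6 comparisons were IFNβ in each line, its average, the lines untreated and after IFNβ, and the interaction. Errors are limma's standard errors. Folds are ratios of geometric means, each value at least at the bound, and "at least" where a group lay under it. An exact permutation test of 2 arrays against 2 gives no two-sided p below 0.333. Precision is limited by the number of arrays. Deviations of same-numbered arrays from their group means correlated by 0.441 to 0.523 in all 6 pairs of groups. The labels do not give the replicate numbers as pairs. The main fit and its p-values leave this pairing out. It enters only the settings with a replicate block and the differences taken within a replicate number.

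Genes were named by a rule: all members called, the 10 largest changes without overlap in each direction, the 5 largest interactions and line differences, the 8 brightest, those next to the bound, and members whose probes disagree. The members, lists and rule were chosen with earlier results of these data known. Protein sequences were not used here.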

Additional observations from a re-analysis of the deposited data

Results flagged for a closer look

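Zfp457 moved in opposite directions in the lines, with no overlap between untreated and IFNβ arrays in either: down in L929 by a log2 change of -0.54 and up in L929IRF8 by 0.66. The interaction was 1.20 ± 0.55 on the log2 scale and did not pass the test (limma, adjusted p = 1.0, unadjusted p = 0.0827). The same held for Zfp628, up in L929 by 0.18 and down in L929IRF8 by a log2 change of -0.43, with an interaction of -0.61 ± 0.12 (adjusted p = 0.507, unadjusted p = 0.00393). Zfp446 (interaction -0.41, adjusted p = 1.0) and Zfp933 (0.54, adjusted p = 1.0) also moved in opposite directions without overlap. A lack of overlap of 2 arrays against 2 is common. Of genes above the bound 29% were lower and 13.9% higher without overlap in L929. In L929IRF8 the shares were 26.7% and 12.4%. How many of those genes moved in opposite directions in the lines was not counted.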

How the results depend on the processing

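The 2 arrays in a group limit every call, and a group under the bound gives only a limit. Over the 21 alternatives the counts of Zfp genes called between the lines, without and with IFNβ, and for the interaction stayed at 0. For IFNβ in L929, where 3 genes were called, the count was 1 with an intensity trend, with only probes above the bound, and with members above 4 times the bound. In L929IRF8, also with 3, it was 0 with a pseudocount of 4, and 1 with only probes above the bound, values raised to the bound, members above 4 times the bound, or centring on the median change. For the average over the lines, with 8, it was 5 with an intensity trend or with only probes above the bound, 3 with values raised to the bound, and 4 with members above 4 times the bound or centring on the median change. Leaving out 1 array at a time gave 1 to 3 calls in L929, 0 to 3 in L929IRF8 and 3 to 6 on average. The causes were not tested, other than that leaving out an array leaves fewer arrays and the 4-fold bound fewer members (89).

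With the replicate block 3 genes were called in L929, 2 in L929IRF8 and 9 on average. The block combined with only probes above the bound, and the centring on the median change, were chosen after seeing the data. The combined setting called 19 on average. With the block alone, the genes added were Zfp251 in L929 (adjusted p = 0.0317), Zfp655 in L929IRF8 (0.0406), and Zfp251, Zfp512, Zfp623 and Zfp397 on average, all lower. Apart from the calls of Zfp60, Zfp362, Zfp622, Zfp82 and Zfp597 given above as lost, the block ended no call.

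The members' median change kept its sign for IFNβ under every alternative. It was -0.09 in L929, -0.04 in L929IRF8 and -0.04 on average after centring on the median change, and -0.08 in L929IRF8 with a pseudocount of 64. Leaving out 1 array gave -0.21 to -0.07 in L929, -0.14 to -0.06 in L929IRF8 and -0.14 to -0.08 on average, and -0.06 to 0.04 between the untreated lines, -0.02 to 0.09 between the lines after IFNβ and -0.00 to 0.11 for the interaction.

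After centring on the median change 17 of the 144 members turned from a negative to a positive average change, 0 of them called before or after, with Zfp131 (0.01) and Zfp277 (0.03) among the named genes. With 1 array left out the change of Zfp457 ran from -0.19 to 0.32 (negative -0.19, -0.04 and -0.01), of Zfp930 from -0.07 to 0.25 (also -0.02), of Zfp110 from -0.04 to 0.27, of Zfp131 from -0.16 to 0.03, of Zfp46 from -0.20 to 0.02 (also 0.00 and 0.01), of Zfp277 from -0.18 to 0.09 (also 0.01, 0.05 and 0.05) and of Zfp687 from -0.25 to 0.04 (also 0.01).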
